A study of Mus musculus with 6 samples.

Results

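The 44 collagen chain genes of the mouse genome were examined as genes with little expected use in a B cell. They were taken from the GRCm38 (mm10) GENCODE annotation as the protein-coding genes whose symbol is Col, a type number, the letter a and a chain number, which gave 44 of 21864 protein-coding genes. The data were 6 peak lists from germinal center (GC) B cells, 3 for H3K4me3, the histone mark typical of active promoters, and 3 for H3K4me1, a mark placed largely at enhancers. They were made by Mint-ChIP, a chromatin immunoprecipitation in which barcoded samples of few cells are pooled. Mice labelled WT were immunized with sheep red blood cells, spleens were taken on day 8 and 50000 sorted cells went into each library. In the study WT denotes Cγ1-cre/+ mice, in which Cre is made in GC B cells, and the labels give neither that allele nor an age for these libraries. The labels name the cells as centrocytes and the study's methods name them as GC B cells, and an H3K27ac antibody stands in the labelled protocol, so the mark of each library was read from its title and antibody label. No mutant group was included, and no label states that the 3 libraries of a mark came from different animals, so the spread between them may be technical.

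Collagens are secreted proteins in which 3 chains wind into a triple helix, and they form the fibrils, networks and anchoring structures of the extracellular matrix. Fibroblasts, chondrocytes, endothelial cells and epithelial cells make most of them, whereas B cells are not known as a source. H3K4me3 covers the start sites of most genes in use and of many CpG-rich genes.

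The 3 H3K4me3 lists held 41936 to 46707 peaks and the 3 H3K4me1 lists 11922 to 24136, with the highest number in H3K4me1 replicate 1. H3K4me3 was listed as broad peaks and H3K4me1 as narrow peaks, so contrasts between the marks include a contrast between calling modes. A gene was counted as carrying a mark at a site when a peak was found in at least 2 of the 3 libraries, and an absent peak is one that did not reach the authors' threshold. The labelled cell type was checked with 9 genes of GC B cells, among them Bcl6 and Pax5. All 9 carried H3K4me3 and all 9 carried H3K4me1 within 5 kb of a transcription start site (TSS). Of 10 genes of fibroblasts and reticular stroma, cells that make collagen in the spleen, 1 carried H3K4me3 (Pdgfra, in 2 libraries), 0 carried H3K4me1, and 7 had no H3K4me3 peak there in any library (Dcn, Lum, Fbn1, Sparc, Pdpn, Ccl19 and Fap). In their gene bodies, 4 of the 10 had H3K4me3 in at least 2 libraries (Pdgfra, Pdgfrb, Fn1 and Fbn1), and Fbn1 had H3K4me1 in 2. H3K4me3 near a TSS was found at 2 of 5 endothelial genes (Pecam1 and Cdh5), at 1 of 4 T cell genes (Cd3d) and at 2 of 4 myeloid genes (Csf1r and Itgam). H3K4me1 near a TSS was found at 1 endothelial gene (Pecam1) and at 0 T cell and 0 myeloid genes. In endothelial gene bodies, H3K4me3 was found at 3 of 5 and H3K4me1 at 2 (Pecam1 and Cdh5). Near a TSS, 59.6% of all coding genes carried H3K4me3 and 17.2% carried H3K4me1. The part of other cells in the collagen peaks was not tested, and a peak in all cells and a peak in some of the cells cannot be told apart.

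Promoter sequences of 4 members are shown because they span the range found, from the member with the strongest H3K4me3 to members with none. Each runs 5′ to 3′ on the plus strand over 300 bases, from 250 before the RefSeq start to 50 from it onwards, with each CpG dinucleotide in capitals. Sequences were matched by symbol for 35 of the 44 members in a RefSeq table for GRCm38.p6. Col23a1 (chr11:51289670-51289969), a transmembrane collagen, had 24 CpGs and H3K4me3 in all 3 libraries. Col27a1 (chr4:63215162-63215461), a minor fibrillar collagen of cartilage, had 18 CpGs and H3K4me3 in all 3. Col1a2 (chr6:4505368-4505667), the second chain of type I collagen, had 13 CpGs and Col3a1 (chr1:45311288-45311587), the chain of reticular fibers, had 0. The RefSeq starts of Col27a1 and Col1a2 lie 23 and 125 bp from the coding TSS used for the peaks, and those of the other 2 at it. Neither Col1a2 nor Col3a1 had a peak of either mark within 5 kb of its TSS in any library.
Col23a1: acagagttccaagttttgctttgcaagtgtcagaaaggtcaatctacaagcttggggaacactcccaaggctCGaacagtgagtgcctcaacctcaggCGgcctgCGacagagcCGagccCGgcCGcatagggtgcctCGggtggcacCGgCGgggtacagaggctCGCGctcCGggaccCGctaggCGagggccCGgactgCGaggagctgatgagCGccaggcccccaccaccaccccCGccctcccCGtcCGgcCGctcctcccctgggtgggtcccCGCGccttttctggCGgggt
Col27a1: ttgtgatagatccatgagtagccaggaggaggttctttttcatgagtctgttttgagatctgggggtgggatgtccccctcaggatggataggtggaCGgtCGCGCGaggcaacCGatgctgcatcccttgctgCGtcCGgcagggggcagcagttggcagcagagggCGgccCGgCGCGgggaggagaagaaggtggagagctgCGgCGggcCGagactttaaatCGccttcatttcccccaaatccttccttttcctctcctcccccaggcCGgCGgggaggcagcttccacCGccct
Col1a2: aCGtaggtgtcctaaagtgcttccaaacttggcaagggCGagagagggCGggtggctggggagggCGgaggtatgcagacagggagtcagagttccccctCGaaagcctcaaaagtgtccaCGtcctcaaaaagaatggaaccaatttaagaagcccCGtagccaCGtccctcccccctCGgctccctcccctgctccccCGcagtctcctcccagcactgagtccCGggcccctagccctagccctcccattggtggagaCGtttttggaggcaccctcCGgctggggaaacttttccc
Col3a1: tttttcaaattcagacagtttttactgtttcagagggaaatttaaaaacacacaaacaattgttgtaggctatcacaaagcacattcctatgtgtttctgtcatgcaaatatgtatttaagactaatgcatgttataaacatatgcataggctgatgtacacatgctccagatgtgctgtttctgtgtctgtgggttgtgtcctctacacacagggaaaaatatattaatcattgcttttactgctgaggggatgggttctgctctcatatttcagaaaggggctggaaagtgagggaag

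Most collagen promoters were without H3K4me3. Within 5 kb of any protein-coding TSS, 29 of 44 collagen genes (65.9%) had no H3K4me3 peak in any library, against 34.5% of all protein-coding genes. In single libraries 33, 36 and 34 collagen genes lacked the mark in replicates 1, 2 and 3, a mean of 78.0% ± 3.47 (SD, n = 3) against 39.6% ± 1.23 (SD, n = 3) of all coding genes, with both shares taken in the same libraries. The ranges of the 3 libraries did not overlap between the sets, with a highest value of 40.7% in coding genes and collagen genes above that in each library.

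H3K4me3 within 5 kb of a TSS was found in at least 2 libraries at 8 collagen genes (18.2%), against 59.6% of all coding genes. In all 3 libraries it was found at 6 (13.6%), against 56.2%. A peak in a single library was more frequent at collagen genes, with 7 of 44 (15.9%) against 5.88% of coding genes. Of the 15 collagen genes with such a peak in any library (34.1%, against 65.5%), 7 thus had it in 1 library. Near-TSS collagen peaks numbered 15, 11 and 15 in replicates 1, 2 and 3, with median widths of 652, 619 and 673 bp, against 1460, 1283 and 1301 bp at all coding genes. Their median fold enrichment, the ratio of fragment pileup to local background, was 3.45, 4.35 and 3.77, against 5.63, 5.31 and 5.25. Peaks of high confidence (−log10 q-value of at least 5) made up 13.3%, 18.2% and 13.3% of the near-TSS collagen peaks and 58.6%, 53.8% and 51.4% of those of all coding genes. An H3K4me3 peak that covered the TSS itself was found at 3, 1 and 3 collagen genes, 5.30% ± 2.62 (SD, n = 3) against 44.6% ± 2.49 (SD, n = 3).

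H3K4me1 was rarer still at collagen start sites. It was found within 5 kb of a TSS in at least 2 libraries at 0 of 44 collagen genes, against 17.2% of coding genes, and in any library at 2 (4.55%), against 35.7%. These 2 were Col15a1 and Col8a2, both in replicate 1, the library with the most H3K4me1 peaks. Replicates 2 and 3 had no collagen peak there, whereas 16.8% and 15.6% of coding genes had one.

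**Figure D1:**
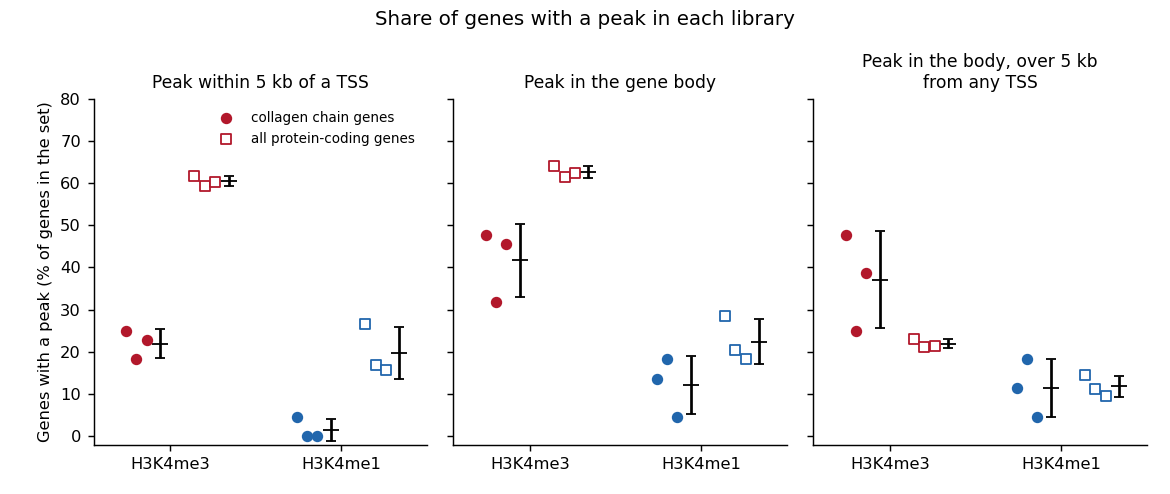
Share of genes with a peak (y axis, % of genes in the set) for 44 collagen chain genes (filled circles) and 21864 protein-coding genes (open squares), by mark and by place. Each point is 1 library, with the mean and SD of the 3 libraries beside it in black. Collagen points for H3K4me3 near a TSS stand for 8 to 11 of 44 genes, and all of them lie below the coding points at 59.3% to 61.7%.

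By collagen class, the exceptions were spread over 4 classes. Both multiplexins (Col15a1 and Col18a1), 2 of 4 transmembrane collagens, 2 of 9 collagens of the FACIT group, which decorate fibrils, and 2 of 11 fibrillar chains carried H3K4me3 near a TSS in at least 2 libraries. None of the 9 network-forming chains of basement membranes and cartilage did, none of the 6 type VI chains of beaded filaments and not the anchoring fibril chain Col7a1. The share of all coding genes was 59.6%. With 1 to 11 genes in a class, 1 gene moves a class share visibly, and a difference between classes was not tested. For type I collagen the 2 chains of 1 molecule differed. Col1a1 carried H3K4me3 in 3 libraries and Col1a2 had no peak of either mark in or near the gene.

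**Figure D2:**
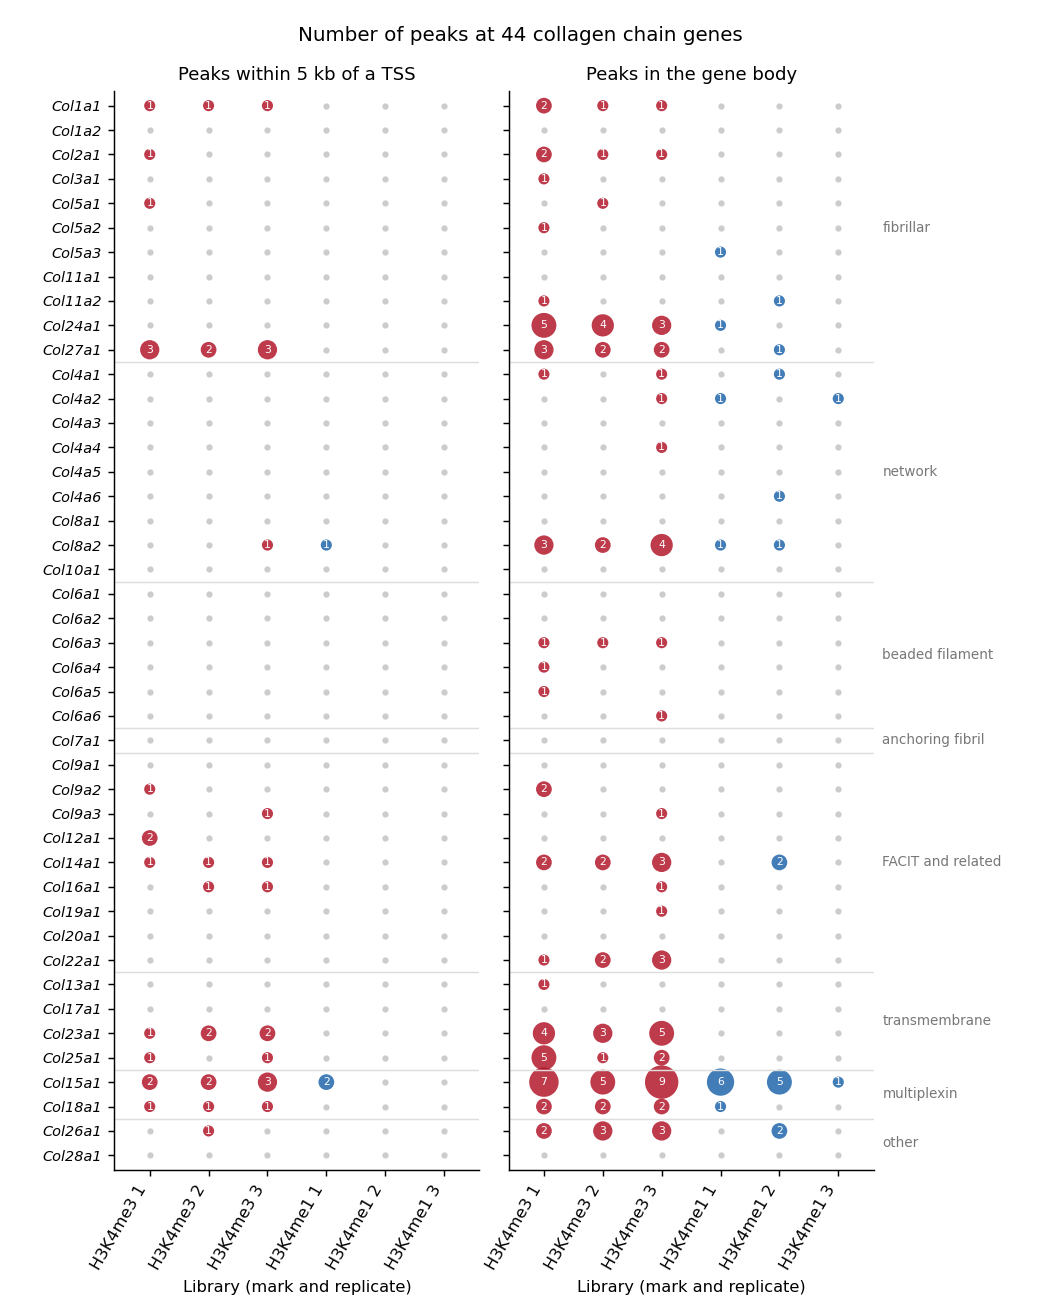
Number of peaks at each of the 44 collagen chain genes (rows, grouped by class) in each of the 6 libraries (columns), within 5 kb of a TSS (left) and in the gene body (right). Numbers in the circles are peaks, red for H3K4me3 and blue for H3K4me1, and grey dots mark 0. Peaks near a TSS are confined to 15 genes for H3K4me3 and 2 for H3K4me1.

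Col23a1 (chr11:51289920-51583918, plus strand), which encodes a transmembrane collagen, had the strongest promoter peak of the family. Its H3K4me3 peaks at the TSS were 1479, 863 and 1269 bp wide in replicates 1, 2 and 3, with fold enrichments of 8.14, 10.6 and 6.50 and −log10 q-values of 11.1, 16.2 and 7.66. The peak covered the TSS in replicate 1 and ended at −121 and −23 bp from it in replicates 2 and 3, where negative positions are upstream. Among coding genes with a near-TSS H3K4me3 peak, 77.4%, 98.4% and 61.8% had a lower highest fold enrichment than Col23a1 in the 3 libraries. It was the only collagen gene above the coding median of this value in any library. In replicate 3 a second peak of 281 bp lay at 678 bp, with a fold enrichment of 6.05 and a −log10 q-value of 6.46. In replicate 2 a second peak of 297 bp lay at 4998 bp, just inside the 5 kb limit. The nearest collagen peaks beyond the limit lay at 5202, 5214 and 5276 bp (Col15a1, of which the second is H3K4me1) and at 5350 bp (Col1a1).

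Col27a1 (chr4:63214004-63334991, plus strand) was covered at its coding TSS in replicates 1 and 3 by peaks of 1610 and 1576 bp with fold enrichments of 3.82 and 3.67. In replicate 2 a peak of 2084 bp, with a fold enrichment of 4.49, ended at −106 bp. A further site in the first intron, from 1341 bp downstream, was listed in all 3 libraries. Col18a1 (chr10:77052178-77166548, minus strand), whose product is cut to release endostatin, had peaks of 652, 906 and 893 bp with fold enrichments of 3.88, 4.34 and 4.73. They began 329, 155 and 88 bp downstream of its TSS. In both genes the positions repeated between libraries while the enrichment stayed below the coding medians of 6.55, 6.02 and 5.99 for a marked gene's highest peak.

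Col1a1 (chr11:94936224-94953042, plus strand), the main chain of type I collagen, had H3K4me3 peaks of 1824, 338 and 1323 bp with fold enrichments of 4.93, 3.64 and 3.64. They lay inside the gene, beginning 474, 705 and 729 bp after the TSS, and no library had a peak over the TSS itself. Col14a1 (chr15:55307750-55520803, plus strand), a FACIT collagen of skin and tendon, showed the reverse position. Its peaks of 614, 619 and 592 bp ended upstream of the 5′ TSS at −664, −664 and −728 bp, with fold enrichments of 4.42, 4.72 and 5.19. Position and width repeated closely between the libraries.

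The peaks of Col16a1 and Col25a1 were found in 2 libraries each. For Col16a1 (chr4:130047840-130099283, plus strand), a FACIT collagen, peaks of 735 and 210 bp in replicates 2 and 3 lay at −1704 and −1966 bp. They were nearer to the TSS of the antisense gene Gm12963, at 1638 and 1900 bp, and could not be assigned to one of the pair. For Col25a1 (chr3:130131501-130599877, plus strand), a transmembrane collagen of neurons, peaks of 509 and 673 bp in replicates 1 and 3 lay at 748 and 57 bp after the coding TSS. These did not overlap each other. Requiring the libraries to share a site left 7 of the 8 exceptions. These are 15.9% of the 44 collagen genes, against 58.9% of all coding genes.

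The 7 genes with H3K4me3 in 1 library had peaks of low enrichment. Fold enrichment ranged from 3.09 at Col9a3, a chain of type IX collagen of cartilage, where a 175 bp peak covered the TSS in replicate 3, to 4.43 at Col12a1, a FACIT collagen, where a 1641 bp peak ended at −967 bp in replicate 1. Col8a2, a network-forming chain of the corneal membrane, had a 1598 bp peak in replicate 3 with a fold enrichment of 3.43, and Col9a2 a 1228 bp peak in replicate 1 with 3.13. The others were Col5a1, which limits the diameter of type I fibrils (278 bp, replicate 1, 3.45), the cartilage chain Col2a1 (346 bp, replicate 1, 3.36) and Col26a1 (222 bp, replicate 2, 4.31). Replicate 1, with the most H3K4me3 peaks, held 4 of these 7 genes.

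**Figure D3:**
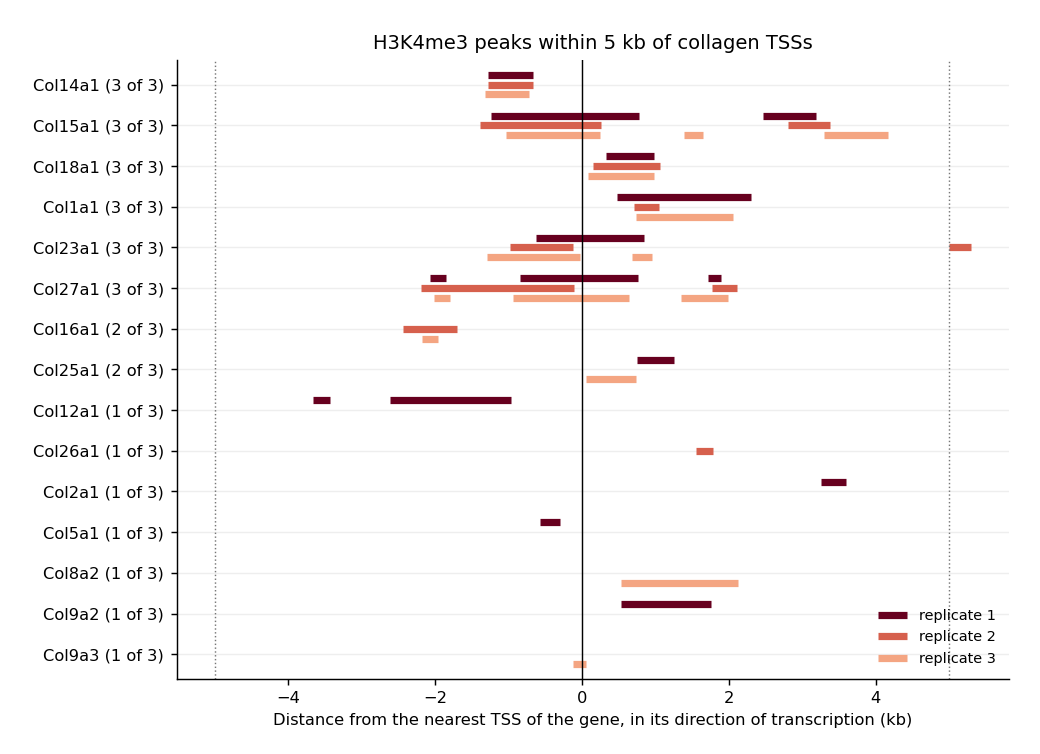
H3K4me3 peaks within 5 kb of a TSS for the 15 collagen genes that had one, drawn as bars from start to end at their distance in kb from the nearest own TSS (x axis, negative is upstream) and colored by replicate. Dotted lines mark 5 kb. Bars of different replicates line up at Col14a1, Col18a1, Col1a1 and Col27a1, and the lower 7 genes have bars of 1 replicate.

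Col15a1 (chr4:47208161-47313167, plus strand), which encodes a basement membrane multiplexin, was the member with the most peaks of both marks. Its 5′ TSS at 47208161 had none within 5 kb. Near-TSS H3K4me3 came from 2 internal starts of shorter transcripts. The last of these, at 47303722, was covered in all 3 libraries by peaks of 2015, 1649 and 1290 bp with fold enrichments of 5.19, 4.65 and 4.59. Taking the 5′ TSS of each gene alone therefore removed Col15a1 from the 8 exceptions and left the other 7.

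Along the gene body Col15a1 had 7, 5 and 9 H3K4me3 peaks and 6, 5 and 1 H3K4me1 peaks in replicates 1, 2 and 3. After merging overlapping peaks these formed 14 regions, of which 5 held H3K4me3 in all 3 libraries. One region held H3K4me1 in all 3. It lay in an intron, 38433 bp from the 5′ TSS, with H3K4me1 fold enrichments of 5.31, 10.5 and 5.71 and H3K4me3 in replicate 3 alone at 4.15. Its H3K4me1 peaks began 38805, 38805 and 38797 bp from the 5′ TSS in replicates 1, 2 and 3. They spanned 207, 208 and 193 bp and shared most of their length. The peak of replicate 2 had a −log10 q-value of 13.4. Regions at 63641 and 100763 bp from the 5′ TSS held H3K4me3 in 3 libraries and H3K4me1 in replicates 1 and 2.

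The sequence under the replicate 2 peak (chr4:47246966-47247173, plus strand, GRCm38.p6) is shown because it is the single collagen site with H3K4me1 in all 3 libraries. Capitals mark GGAAGT, the core letters bound by ETS-family factors, which include the B cell regulators PU.1 and SPIB. It was found once on the plus strand and 0 times on the minus strand, where it reads ACTTCC. The same letters were found on either strand in 17.2% of 13922 windows of the same length around the summits of H3K4me1 replicate 2, so the match describes the sequence and shows no binding.
Col15a1 intron: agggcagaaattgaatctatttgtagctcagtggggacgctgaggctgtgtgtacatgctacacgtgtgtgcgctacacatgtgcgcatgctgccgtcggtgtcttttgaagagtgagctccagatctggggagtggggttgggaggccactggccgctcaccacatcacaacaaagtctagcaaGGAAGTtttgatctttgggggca

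**Figure D4:**
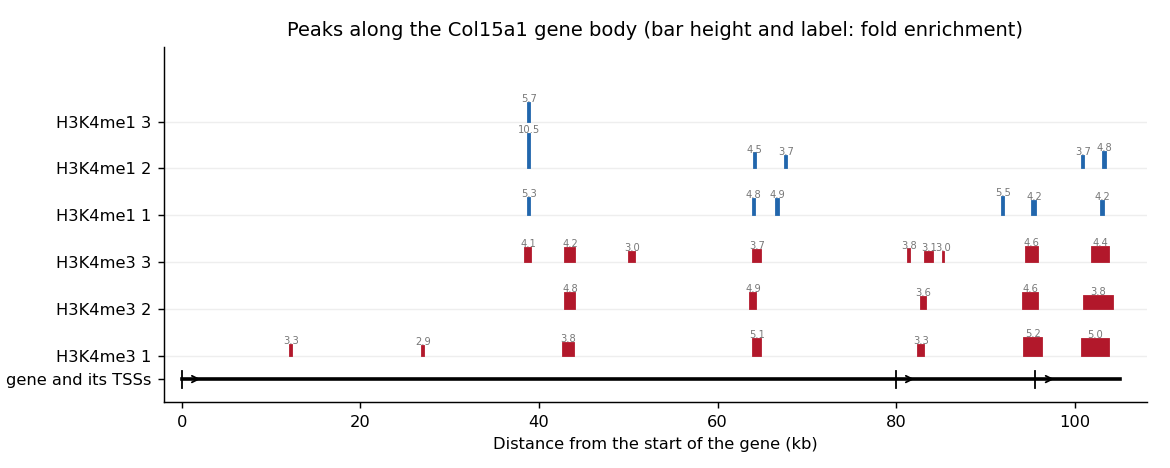
Peaks along Col15a1 in the 6 libraries by distance from the start of the gene (x axis, kb), with bar height and printed value giving fold enrichment. The black line is the gene with a tick and arrow at each coding TSS. The region that begins 38433 bp from the start is the one where all 3 H3K4me1 libraries have a peak. Those H3K4me1 peaks begin at 38797 to 38805 bp, and the 5′ TSS has no peak within 5 kb.

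Gene bodies of collagens held fewer peaks per length than those of coding genes. Collagen genes are long, with a median of 114 kb (7.11 to 468 kb) against 17.4 kb for coding genes, and together span 5.37 Mb on 15 chromosomes. H3K4me1 in the gene body in at least 2 libraries was found at 3 collagen genes (6.82%), against 20.2% of coding genes, and in all 3 libraries at 1 (2.27%), against 10.1%. A further 9 collagen genes (20.5%) had it in 1 library, against 16.7%. Single H3K4me1 libraries marked 6, 8 and 2 collagen gene bodies, 12.1% ± 6.94 (SD, n = 3), against 22.4% ± 5.37 (SD, n = 3) of coding genes. The collagen share was the lower one in each library, by a narrow margin in replicate 2 (18.2% against 20.4%). In any library H3K4me1 was found in the body of 12 collagen genes (27.3%), against 36.9%.

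Per length the difference was larger. Collagen bodies held 2.05, 2.61 and 0.373 H3K4me1 peaks per Mb in replicates 1, 2 and 3, against 15.8, 8.98 and 7.87 per Mb of all coding gene bodies. Counting peaks over 5 kb from the TSS of any annotated gene left 1.49, 2.61 and 0.373 per Mb, against 8.82, 5.27 and 4.42. Such distal H3K4me1 was found in at least 2 libraries at 2 collagen genes (4.55%), against 10.4% of coding genes, and in any library at 12 (27.3%), against 19.1%. In every library the collagen density was the lower one. The collagen peak number did not follow that of the library, since replicate 1 had 24136 peaks with 11 in collagen bodies and replicate 2 had 13923 with 14. Replicate 3 had 2 of its 11922 peaks there.

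Of the 3 genes with H3K4me1 in the body, Col15a1 was marked in all 3 libraries. Col4a2, a chain of the basement membranes under most epithelia and vessels, had a single intronic site 128750 bp from its TSS, with fold enrichments of 4.21 in replicate 1 and 3.65 in replicate 3. The 2 peaks of Col8a2 lay at different sites, 1244 bp from the TSS in replicate 1 and 26041 bp in replicate 2, with fold enrichments of 4.81 and 4.50. A shared H3K4me1 site in at least 2 libraries was thus found at 2 collagen genes, Col15a1 and Col4a2, which is 4.55% against 13.8% of coding genes. The 9 genes with H3K4me1 in 1 library were Col4a1, Col4a6, Col5a3, Col11a2, Col14a1, Col18a1, Col24a1, Col26a1 and Col27a1. The highest of these enrichments was 7.02 at Col18a1, at a site with H3K4me3 in all 3 libraries.

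H3K4me3 was found in the body of 14 collagen genes (31.8%) in at least 2 libraries, against 62.2% of coding genes, and of another 14 (31.8%) in 1 library, against 6.25%. In any library it was found at 28 (63.6%), against 68.5%. Its density was 8.95, 5.59 and 8.57 peaks per Mb, 7.70 ± 1.84 (SD, n = 3), against 28.8 ± 1.47 (SD, n = 3). More than 5 kb from any TSS it was 5.47 ± 1.52 (SD, n = 3), against 11.7 ± 0.886 (SD, n = 3). The share of genes with such distal H3K4me3 in at least 2 libraries was 27.3% (12 genes), against 20.7%, and in any library 61.4% (27 genes), against 29.1%. By gene collagens were not below the coding background while per Mb they were. Of the 14 genes, 11 shared a site between libraries. The exceptions Col6a3, Col22a1 and Col25a1 had peaks at different sites in each library, all of 174 to 673 bp.

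Compared with coding genes of like length, collagens had fewer marked bodies in each class. Among the 18 collagen genes of 50 to 150 kb, 2 (11.1%) had H3K4me1 in the body, against 42.7% of 3510 coding genes, and 6 (33.3%) had H3K4me3 there, against 79.1%. Among the 11 over 150 kb, 0 had H3K4me1, against 40.1% of 1475 coding genes, and 5 (45.5%) had H3K4me3, against 84.5%. Among the 15 under 50 kb, 1 (6.67%) had H3K4me1, against 13.8% of 16879. Distal H3K4me3 was below the coding share in the longer classes (27.8% against 49.9%, and 45.5% against 74.3%) and above it under 50 kb, at 2 genes (13.3%) against 9.88%. From the shortest to the longest class, H3K4me3 near a TSS was found at 6.67%, 22.2% and 27.3% of collagen genes and at 57.9%, 71.5% and 51.7% of coding genes. With 11 to 18 collagen genes in a class, 1 gene moves these shares visibly.

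Merging the peaks of both marks gave 93 regions in or near 31 collagen genes. Of these, 21 held H3K4me3 in 3 libraries, 4 in 2 and 59 in 1, and 9 held H3K4me1 without H3K4me3. Such regions are not given here for all coding genes, so these counts have no background. H3K4me1 in at least 2 libraries was found at 4 regions, 3 of them in Col15a1. Repeated H3K4me3 regions over 5 kb from any TSS included one in Col14a1 and a pair in introns of the fibrillar gene Col24a1. The Col14a1 region of 4128 bp was merged from H3K4me3 peaks of up to 3158 bp and held 2 H3K4me1 peaks of replicate 2. Further ones were 2 regions of Col8a2 and an intronic region of Col26a1, with fold enrichments of 4.46 to 6.51. The Col26a1 peaks lay only 5366 to 5421 bp from the TSS of Gm20485, a gene inside its intron. In Col23a1 an intronic region 287587 bp from its own TSS had fold enrichments of 8.62, 4.48 and 4.95. It lay 6773 to 6786 bp from the TSS of the neighboring gene Phykpl, which encodes an enzyme of lysine breakdown. The region at the 3′ end of Col23a1, with 7.49, 7.13 and 5.36, covered that TSS of Phykpl.

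At 13 collagen genes (29.5%) no library had a peak of either mark, near a TSS or in the body, against 27.3% of coding genes. These were Col1a2 and Col11a1 among fibrillar chains, Col4a3, Col4a5, Col8a1 and Col10a1 among network chains, Col6a1 and Col6a2 of type VI collagen, Col7a1, Col9a1, Col17a1, Col20a1 and Col28a1. The share was close to that of all coding genes. Col3a1 had 1 H3K4me3 peak in its body, in replicate 1, and Col4a1 had an intronic site with H3K4me3 in replicates 1 and 3 (fold enrichments of 5.20 and 3.70) and H3K4me1 in replicate 2 (5.25).

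CpG content was compared because the rule did not use it. The ratio of observed to expected CpG in 300 bases around the 5′ coding TSS had a median of 0.473 in collagens (0 to 0.936) and 0.552 in all coding genes. It was 0.618 in the 8 collagen genes with H3K4me3, 0.602 in the 7 with a peak in 1 library and 0.405 in the 29 without. In coding genes the medians were 0.743 with and 0.202 without H3K4me3, so the median of unmarked collagen promoters was above that of unmarked coding promoters, and the median of marked ones below. These medians count a peak near any coding TSS of the gene, and with peaks near the 5′ TSS alone, where the ratio was taken, the marked collagen median was 0.587 (7 genes, without Col15a1) and the unmarked one 0.407 (30 genes). At that TSS, 3 of 12 collagen promoters with a ratio of at least 0.6 had H3K4me3 in at least 2 libraries, against 87.2% of 10138 coding promoters. Of 32 below 0.6, 4 (12.5%) had it, against 33.6%. The 5 CpG-rich promoters with no H3K4me3 in any library were Col4a1 (0.902), Col13a1 (0.837), Col4a2 (0.818), Col5a3 (0.665) and Col15a1 (0.649), whose peaks lay at its internal starts. Col4a1 and Col4a2, the main basement membrane chains, start 21 bp apart on opposite strands of chromosome 8, and 78 bases of their windows are shared. The promoters printed for Col23a1 and Col3a1 lie at 0.700 and 0 on this scale.

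**Figure D5:**
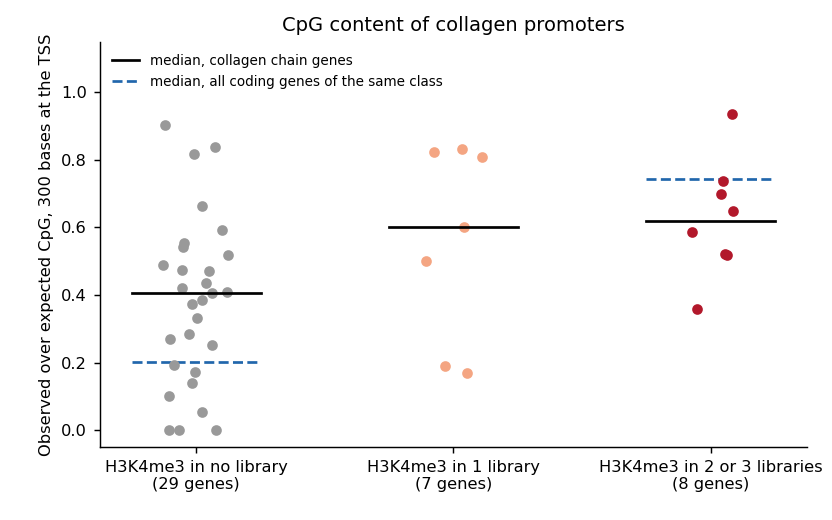
Ratio of observed to expected CpG in 300 bases at the 5′ coding TSS (y axis) of 44 collagen genes by the number of H3K4me3 libraries with a peak near any coding TSS of the gene. Each point is a gene, black lines are collagen medians (0.405, 0.602 and 0.618) and dashed lines are medians of all coding genes without the mark (0.202) and with it in at least 2 libraries (0.743).

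Counting all peaks, genes that act on collagen rather than encode it had a higher share with H3K4me3 near a TSS than the chains. H3K4me1 near a TSS was found at 1 of 10 collagen receptors, below the 17.2% of all coding genes, and at 0 genes of collagen synthesis. Of 28 genes for collagen synthesis and cross-linking, 16 (57.1%) had H3K4me3 near a TSS in at least 2 libraries, close to the 59.6% of all coding genes. The number with H3K4me1 there was 0, as for the chains, against 17.2%. The closeness for H3K4me3 was not kept at stricter settings or when replicate 1 or 3 was left out. Without H3K4me3 replicates 1, 2 and 3 in turn it was found at 12, 15 and 11 of the 28. The coding shares were then 56.8%, 58.0% and 57.2%. At a −log10 q-value of at least 5 it was left at 6 of the 28, against 44.1% of coding genes. Among the 10000 best peaks per library it was left at 6, against 33.4%. With all peaks counted, H3K4me3 was found in all 3 libraries at P4ha1, P4hb and Plod1, which hydroxylate proline and lysine, at Ppib and Crtap of the prolyl 3-hydroxylase complex, and at 6 others (Plod3, P3h1, P3h3, Colgalt1, Bmp1 and Loxl3). Of the 28, 11 had no H3K4me3 peak near a TSS in any library, where 34.5% of all coding genes had none. They included Serpinh1, the collagen chaperone, Lox, Loxl1 and Loxl2, which cross-link fibrils, and Adamts2, which trims procollagen. Of the same 11, Adamts3 and Adamts14 had H3K4me3 in the gene body in 3 libraries, and P3h2 and Pcolce2 in 1. Of 10 collagen receptors, 3 (30.0%) had H3K4me3, namely the integrin chain Itgb1, the kinase Ddr1 and the inhibitory leukocyte receptor Lair1, and Itgb1 alone had H3K4me1. Several of these enzymes and receptors also act on other proteins.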

How the data were processed

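Mint-ChIP peak lists of 6 libraries were used, 3 for each mark. The submitters' processing notes name mm10, BWA, Picard, HOMER and Genrich without roles, and the peak caller is not given in the sources used here, although the layout is that of MACS2. The authors called peaks per library, as broad peaks for H3K4me3 and narrow peaks for H3K4me1. The deposited fold enrichment is a linear ratio of pileup to local background, the deposited −log10 p-value and −log10 q-value come from the same comparison, and the deposited score column was not used. The lowest −log10 q-value was 1.02 to 1.14 for H3K4me3 and 1.31 to 1.32 for H3K4me1. Read depth is not given in these lists, so absence of a peak can reflect depth, and no interval was attached to it.

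Coordinates were read as GRCm38, with 0 peaks past a chromosome end. Genes came from the GENCODE basic annotation. The start positions of protein-coding transcripts gave 41451 TSSs, 66 of them in collagens. A peak within 5 kb counted as near, and 1 bp of overlap counted as in the gene body. Shares were set beside those of all 21864 coding genes, with no test over the members. Means have the SD over 3 libraries. Code in Python 3.11.15 with pandas 2.3.3 and NumPy 2.4.6 was tested on simulated data. Members and lists were chosen with earlier results of these data known. Named genes were all members with a near-TSS peak or with H3K4me1 in the body in 2 libraries, the most abundant chains of other tissues, and the neighbor nearest to a peak of an exception. Classes and gene lists came from textbook knowledge, and 1 marker gene is not reported here. Alternatives changed the distance, the TSS, the peak threshold, the number of libraries and the libraries used.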

Additional observations from a re-analysis of the deposited data

How the results depend on the processing

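No paired analysis was possible because replicate numbers could pair only libraries of different marks, which were not compared with each other, and no result comes from a test. Collagen and coding shares of the same library were set side by side. Of 85 alternatives to the main values, 61 stayed within 1.5 times or 1 SD and 24 did not. The count of collagen genes without H3K4me3 near a TSS, 29, was among the former under all of its alternatives (30 to 43). These alternatives could only raise a count that cannot exceed 44, so staying within 1.5 times was nearly fixed in advance. Main values of 0, such as collagen genes with H3K4me1 near a TSS, could not rise either and are among the 61. The coding share without the mark was 35.8% to 57.5% under these alternatives, in place of 34.5%. The highest of both, 43 genes and 57.5%, came with the 10000 best peaks per library. The 8 genes with H3K4me3 near a TSS became 2 when the peak had to cover the TSS, 1 at a −log10 q-value of at least 5 (Col23a1) and 1 among the 10000 best peaks per library, where coding shares were 44.8%, 44.1% and 33.4%. The 14 with H3K4me3 in the body became 2 and 1 under these last settings and 9 without peaks nearer to another gene (coding 44.5%, 34.0% and 57.3%). H3K4me3 peaks per Mb were 0.808, 0.435 and, over 5 kb from any TSS, 5.47 in place of 7.70 (coding 12.6, 8.58 and 11.7 in place of 28.8). The 3 with H3K4me1 in the body became 1 at the stricter q-value, 1 among the best peaks, 1 without peaks nearer to another gene and 1 in 3 of 3 libraries (coding 5.28%, 13.99%, 14.1% and 10.1%, in place of 20.2%). Without replicates in turn they were 1 to 2, with 1 when H3K4me1 replicate 1 was left out (coding 11.3%). H3K4me1 peaks per Mb were 0.186 in place of 1.68 at the stricter q-value (coding 2.21 in place of 10.9). Stricter settings keep fewer peaks by construction, and the cause of the other changes was not tested.

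The alternatives for the pathway lists, the requirement of a shared site, the CpG ratio of 0.6 that splits promoters and the use of the 5′ TSS with it were chosen after seeing the data. Synthesis genes with H3K4me3 numbered 16, then 6 at the stricter q-value, 6 among the best peaks and 11 to 15 without replicates in turn. At the stricter q-value and among the best peaks, 44.1% and 33.4% of coding genes had H3K4me3 near a TSS, in place of 59.6%. Without replicates in turn that share was 56.8% to 58.0%. Receptors with H3K4me3 numbered 3, then 1 and 0, and with H3K4me1 1, then 0 at a distance of 1 kb, 0 at the stricter q-value, 0 among the best peaks, and 0 to 1 without replicates in turn, with 0 when H3K4me1 replicate 2 or 3 was left out.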
